A study of Mus musculus with 4 samples.

Results

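The 34 genes described here encode proteins that copy DNA in S phase or carry a cell through G2 and mitosis. They were chosen by name from the 31253 genes of the count matrix and not by their values. The 11 S genes are Mcm2, Mcm3, Mcm4, Mcm5, Mcm6, Mcm7, Pcna, Rrm1, Rrm2, Tyms and Pclaf. The 19 G2/M genes are Mki67, Top2a, Birc5, Cdk1, Ccna2, Ccnb1, Ccnb2, Ube2c, Cdc20, Plk1, Aurka, Aurkb, Bub1, Kif11, Tpx2, Cenpa, Cenpe, Cenpf and Nusap1, and the other 4 members are Gmnn, Cdt1, Stmn1 and Hmgb2. All 34 symbols were found, and each had at least 5 unique molecular identifiers (UMIs, 1 per captured transcript) in the macrophages of every library.

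Single-cell transcriptomes came from viable peritoneal cells sorted for F4/80, the macrophage surface protein encoded by Adgre1, from mice aged 24 weeks. There were 4 groups of 1 sample each. Male Apoe-/- mice, which lack apolipoprotein E and serve as a model of atherosclerosis, ate a diet with 21% fat and 0.15% cholesterol for 20 weeks, starting at 4 weeks of age, and returned to normal diet a week before immunization began. At week 21 one of these groups was injected into the peritoneum with 3 mg of a monoclonal antibody to collagen VI (anti-CVI-mAb) in 200 µL, and the other with buffer. Apoe-/- mice on normal diet and C57BL/6 mice on normal diet, both given 200 µL of buffer, were the remaining groups. How many animals gave each sample is not stated. The deposited matrix tells 4 libraries apart by barcode suffix, 1 to 4, and neither the labels nor the headers say which group a suffix stands for. Each library is therefore described on its own, no difference between the groups is given, and no p-value is computed, since cells of 1 library are not replicates.

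Library 1 stood apart in the quality of its barcodes. Of its barcodes 42.3% had fewer than 500 detected genes or over 10% mitochondrial UMIs and were removed, against 10.97 to 19.3% in the others. The libraries held 40321459, 74067998, 73429015 and 78083803 UMIs. Macrophages were gated by at least 2 UMIs of Adgre1 with none of Cd79a or Cd3e, which gave 1538, 4218, 4334 and 5017 cells in libraries 1 to 4, or 42.6 to 84.8% of kept barcodes. B cells (Cd79a of at least 3 UMIs, no Adgre1) numbered 281 to 586 and T cells (Cd3d, Cd3e and Cd3g of at least 2 UMIs together, no Adgre1) 104 to 158, and 489 to 1381 kept barcodes a library fell in no class. Of the 20829 distinct kept barcode sequences, 35 occurred in 2 libraries. A doublet caller marked 72, 1, 0 and 2 barcodes and had not worked in libraries 2, 3 and 4, so doublets remain there.

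A dividing cell builds its replication machinery at the G1/S border under E2F transcription factors, copies its genome in S phase, and then makes cyclin B, mitotic kinases and spindle proteins for division. Many of these late genes are switched on through the CHR promoter element read by the DREAM and MuvB complexes, and their proteins are destroyed by the anaphase-promoting complex as mitosis ends. Large peritoneal macrophages, marked by Timd4 and Gata6, are known to maintain themselves by local division, while small peritoneal macrophages, marked by Ccr2 and class II genes, are replaced from blood monocytes.

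The promoters of the 2 groups differ in the short motifs tied to them in the literature, and the 6 whose genes carry the results that follow are printed. Promoters of 28 of the 34 members were found in RefSeq for GRCm38.p6, each from 250 bases before to 50 bases after the gene start, so that the end of each window lies in the transcribed gene. Motifs were searched as exact letters on both strands: TTTGAA, the CHR core; CCAAT, the box bound by NF-Y; and an E2F-type heptamer, which was TTCCCGC in its first form, TTCGCGC in its next, with TTGCCGC as another form and lastly TTGGCGC. Pclaf (chr9:65890073-65890372, plus strand) and Mcm5 (chr8:75109259-75109558, plus strand) stand for the S genes. Mki67 (chr7:135716330-135716629, minus strand), Ube2c (chr2:164769679-164769978, plus strand), Cdc20 (chr4:118437294-118437593, minus strand) and Ccnb1 (chr13:100786437-100786736, minus strand) stand for the G2/M genes. Capitals mark the motifs, read 5′ to 3′ on the gene's strand, and a motif on the other strand appears as its reverse complement; where 2 motifs overlap the capitals run on.
Pclaf: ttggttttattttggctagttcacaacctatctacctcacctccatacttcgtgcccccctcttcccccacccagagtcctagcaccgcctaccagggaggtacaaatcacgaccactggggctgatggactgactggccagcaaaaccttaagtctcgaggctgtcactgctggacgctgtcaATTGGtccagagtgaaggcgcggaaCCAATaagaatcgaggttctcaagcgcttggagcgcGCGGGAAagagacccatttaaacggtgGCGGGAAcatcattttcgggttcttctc
Mcm5: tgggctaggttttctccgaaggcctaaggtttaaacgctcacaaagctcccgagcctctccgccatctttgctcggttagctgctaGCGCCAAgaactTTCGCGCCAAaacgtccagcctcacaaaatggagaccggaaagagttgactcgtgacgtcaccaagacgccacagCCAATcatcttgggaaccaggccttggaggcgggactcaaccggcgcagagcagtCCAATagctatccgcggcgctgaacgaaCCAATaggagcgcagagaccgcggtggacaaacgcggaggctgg
Mki67: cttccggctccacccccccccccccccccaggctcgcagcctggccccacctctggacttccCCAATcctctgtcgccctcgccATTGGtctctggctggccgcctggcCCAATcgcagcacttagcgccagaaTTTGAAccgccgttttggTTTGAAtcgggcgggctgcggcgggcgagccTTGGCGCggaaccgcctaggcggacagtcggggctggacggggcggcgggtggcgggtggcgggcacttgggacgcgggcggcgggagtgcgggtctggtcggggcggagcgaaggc
Ube2c: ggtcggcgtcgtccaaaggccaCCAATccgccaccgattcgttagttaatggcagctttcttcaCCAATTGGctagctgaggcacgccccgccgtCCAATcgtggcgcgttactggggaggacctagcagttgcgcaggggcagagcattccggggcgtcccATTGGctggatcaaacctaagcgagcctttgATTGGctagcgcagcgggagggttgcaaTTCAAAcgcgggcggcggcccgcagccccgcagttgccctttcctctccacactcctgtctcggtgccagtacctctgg
Cdc20: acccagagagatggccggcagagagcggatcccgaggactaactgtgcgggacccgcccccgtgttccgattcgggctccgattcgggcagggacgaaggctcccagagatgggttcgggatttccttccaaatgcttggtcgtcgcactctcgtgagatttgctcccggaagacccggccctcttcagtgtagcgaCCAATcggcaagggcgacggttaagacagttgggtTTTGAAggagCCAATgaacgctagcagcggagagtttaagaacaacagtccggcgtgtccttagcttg
Ccnb1: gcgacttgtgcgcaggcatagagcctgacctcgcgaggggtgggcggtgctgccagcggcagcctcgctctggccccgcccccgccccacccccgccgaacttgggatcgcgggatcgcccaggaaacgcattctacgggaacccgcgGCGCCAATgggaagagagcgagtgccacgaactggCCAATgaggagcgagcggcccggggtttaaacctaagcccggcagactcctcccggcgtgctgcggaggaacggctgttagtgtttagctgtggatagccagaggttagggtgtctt

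TTTGAA was found in 11 of 16 G2/M promoters, among them Mki67, Top2a, Cdk1, Ccnb2, Ube2c, Cdc20, Plk1 and Cenpf, and in 1 of 10 S promoters, that of Mcm2. Over all 27025 promoters of this length 18.1% held it. In Mki67 it lies at positions -116 and -98 from the start, in Ube2c at -29 and in Cdc20 at -18. E2F-type heptamers were found in 7 of 10 S promoters and 3 of 16 G2/M promoters (Mki67, Cdk1 and Ccnb1), against 9.69% of all. In Pclaf they lie at -5 and 23, in Mcm5 at -164, -152 and -149. CCAAT was common to both groups, in 9 of 10 S and 14 of 16 G2/M promoters, against 37.9% of all promoters, with 6 copies in Ube2c. These matches are letters in a window, not measured sites.

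Cells with at least 3 G2/M genes were a small set of the macrophages in libraries 2, 3 and 4 and close to absent in library 1. To make depth equal, 3000 UMIs were drawn at random from every cell, and shallower cells were left out. A cell was called cycling with at least 3 of the 19 G2/M genes. In library 1, 3 of 1453 macrophages were cycling (0.206%, 95% exact binomial interval 0.0426 to 0.602). Library 2 had 152 of 4163 (3.65%, 3.10 to 4.27), library 3 had 145 of 4310 (3.36%, 2.85 to 3.95) and library 4 had 113 of 4988 (2.27%, 1.87 to 2.72). These intervals, like all others here, cover counting error only. Before thinning the shares were 0.520, 5.93, 5.03 and 3.91%.

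S genes put the libraries in the same order, with a wider gap between library 2 and the others. At least 3 of the 11 S genes were detected in 13 macrophages of library 1 (0.895%), 317 of library 2 (7.61%), 131 of library 3 (3.04%) and 96 of library 4 (1.92%). Library 2 thus held the most S-positive macrophages, with an interval of 6.83 to 8.46% that lay above those of libraries 3 (2.55 to 3.60) and 4 (1.56 to 2.35), while its share of cycling macrophages overlapped that of library 3. Both criteria were met by 1, 117, 78 and 60 macrophages, S genes alone by 12, 200, 53 and 36, and G2/M genes alone by 2, 35, 67 and 53. S shares depended on depth more than G2/M shares did: without thinning they were 9.62, 25.1, 15.7 and 11.8%.

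B cells, which pass the sort only as a minority and mostly rest, gave a level to set beside these shares. No class lacks cell cycle genes by definition, so free RNA and division cannot be told apart in them. Their median depth was 9508.5, 7076.5, 4859 and 6466 UMIs before thinning, against 8218.5, 12506.5, 13951 and 12903 in macrophages. Cycling B cells were 4 of 575 (0.696%), 3 of 553 (0.542%), 0 of 264 and 0 of 257, where a count of 0 allows up to 1.14 and 1.17%. The macrophage G2/M share was at or below this level in library 1 and above it, beyond the intervals, in libraries 2, 3 and 4. B cells with at least 3 S genes were 1.57, 1.45, 0 and 1.56%, so the macrophage S share stood above the B cell level in libraries 2 and 3 but not in libraries 1 and 4, where the intervals overlapped. T cells were few, at 98 to 131 thinned cells a library. Cycling T cells numbered 1, 1, 1 and 2, and S-positive T cells 8 of 106 (7.55%), 2 of 98 (2.04%), 5 of 131 (3.82%) and 9 of 119 (7.56%). The B and T cell gates overlap in 10, 4, 6 and 7 kept barcodes, and cycling cells in both gates, 1 each in libraries 1 and 2, are counted in both classes. Without them cycling T cells numbered 0, 0, 1 and 2. In library 1 the barcode with the most G2/M genes, 14, lay in both gates, and the highest count was 7 in other B cells, 1 in other T cells and 10 in macrophages.

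**Figure D1:**
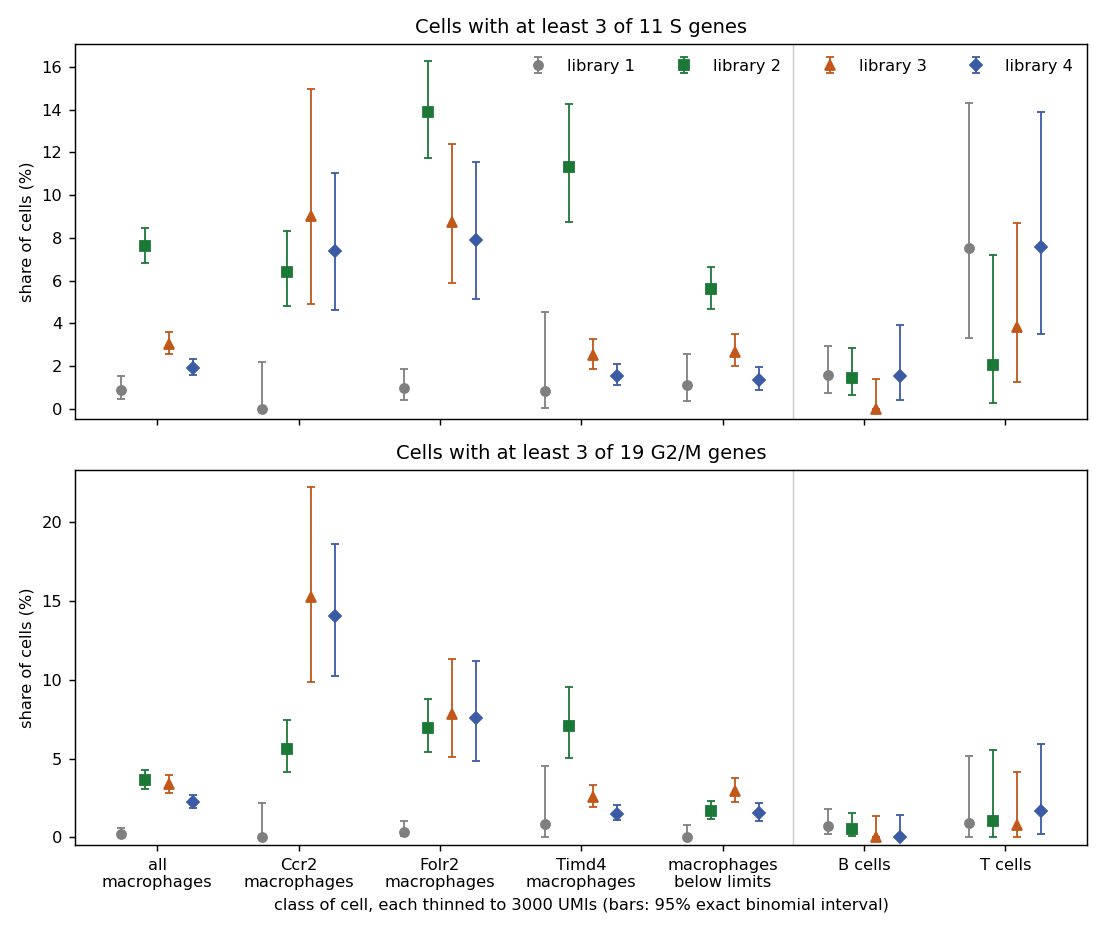
Share of cells (%, vertical axis) with at least 3 S genes (top) or at least 3 G2/M genes (bottom) in each class of cell (horizontal axis), 1 point a library with its 95% exact binomial interval. Cycling macrophages with G2/M genes lie at 2.27 to 3.65% in libraries 2, 3 and 4 and at 0.206% in library 1, and Ccr2 macrophages of libraries 3 and 4 lie highest, at 15.3 and 14.0%.

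Macrophage subsets differed in their share of cycling cells, and the order differed between libraries. Subsets were gated on unthinned counts by at least 3 UMIs of Ccr2, a monocyte chemokine receptor, at least 2 of Folr2, a folate receptor of resident macrophages, or at least 3 of Timd4, a receptor for dying cells, and they overlap. In library 3 cycling cells were 15.3% of 144 Ccr2 macrophages (9.83 to 22.2), 7.81% of 320 Folr2 macrophages (5.12 to 11.3) and 2.56% of 2068 Timd4 macrophages (1.93 to 3.34). Library 4 gave 14.0% of 285 Ccr2 macrophages (10.2 to 18.6), 7.59% of 303 Folr2 macrophages (4.87 to 11.2) and 1.51% of 2653 Timd4 macrophages (1.08 to 2.05). In these libraries the intervals of both Ccr2 and Folr2 macrophages lay above that of Timd4 macrophages. Gated instead by 1 UMI of the marker in the thinned cell, a gate added after the data were seen, the shares were 15.1, 4.12 and 2.49% in Ccr2, Folr2 and Timd4 macrophages of library 3 and 10.3, 4.62 and 1.45% in library 4. The interval of Folr2 macrophages (1.99 to 7.44) then overlapped that of Timd4 macrophages in library 3 and not in library 4. Library 2 showed no such order, with 5.64% of 798 Ccr2 macrophages, 6.95% of 950 Folr2 macrophages and 7.04% of 540 Timd4 macrophages, whose intervals overlap. Library 1 held 0 of 167 Ccr2 macrophages, which allows up to 1.796%, 3 of 842 Folr2 macrophages and 1 of 121 Timd4 macrophages. Macrophages below all 3 limits had 0 of 451, 1.69, 2.92 and 1.54%.

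The subsets had median depths of 15198.5, 15178 and 14754 UMIs in Ccr2, Folr2 and Timd4 macrophages of library 3 and 13640, 15424 and 13752 in library 4. Cycling macrophages had a median of 22086.5, 22403 and 20443 UMIs before thinning in libraries 2, 3 and 4, against 12369.5, 13857 and 12846 in macrophages with no G2/M gene. Among cells of 10000 to 20000 UMIs alone, a range added after the data were seen, cycling cells were 4.23% of 71 Ccr2, 4.57% of 197 Folr2 and 0.870% of 1494 Timd4 macrophages in library 3. The same range gave 10.1% of 159 Ccr2, 2.96% of 169 Folr2 and 0.625% of 1920 Timd4 macrophages in library 4. Within this range the interval of Folr2 macrophages lay above that of Timd4 macrophages in library 3 (2.11 to 8.495 against 0.464 to 1.48), and that of Ccr2 macrophages did in library 4 (5.86 to 15.8 against 0.323 to 1.09). The intervals of Ccr2 macrophages in library 3 (0.880 to 11.9, on 3 cycling cells) and of Folr2 macrophages in library 4 (0.967 to 6.77, on 5) overlapped that of Timd4 macrophages.

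The S share was also higher in Ccr2 and Folr2 than in Timd4 macrophages of libraries 3 and 4. S-positive cells were 9.03, 8.75 and 2.51% of Ccr2, Folr2 and Timd4 macrophages in library 3, and 7.37, 7.92 and 1.55% in library 4. In both libraries the intervals of Ccr2 and Folr2 macrophages lay above that of Timd4 macrophages. Among cells of 10000 to 20000 UMIs these shares were 2.82, 5.08 and 0.937% in library 3 and 6.92, 3.55 and 0.677% in library 4. In library 2 they were 6.39, 13.9 and 11.3%, so Ccr2 macrophages there had the lowest share. Every one of the 11 S genes had a lower level, in UMIs per 1e+06 UMIs (CPM), in Ccr2 than in Timd4 macrophages of library 2, while 16 of the 19 G2/M genes were higher in Ccr2 macrophages. Over all genes of library 2 at 1 CPM or more, 43.3% were higher in Ccr2 macrophages. In libraries 3 and 4 all 34 members were higher in Ccr2 and in Folr2 than in Timd4 macrophages, where 64.1 and 62.2% of all genes were higher in Ccr2 and 67.5 and 67.1% in Folr2 macrophages. In library 2 all 11 S genes and 12 of 19 G2/M genes were higher in Folr2 than in Timd4 macrophages, as were 55.2% of all genes. In library 1, 1 and 4 of the 19 G2/M genes were higher in Ccr2 and in Folr2 than in Timd4 macrophages, against 50.3 and 54.8% of all genes. The Timd4 macrophages there are 122 cells, with 1 cycling among the 121 thinned. Their G2/M genes had from 0 UMIs (Bub1) to 33 (Cenpa), so these counts of genes rest on few cells. The summed level of the 19 G2/M genes was 1467 CPM in Ccr2, 627 in Folr2 and 236 in Timd4 macrophages of library 3, and 1293, 585 and 167 CPM in those of library 4. In library 2 the same sums were 496, 467 and 429 CPM.

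Lymphocytes set another scale for the members' levels. G2/M genes were higher in macrophages than in B cells for 4, 18, 18 and 18 of 19 genes in libraries 1 to 4, and S genes for 2, 11, 8 and 6 of 11, where 48.9, 51.2, 48.3 and 46.1% of all genes were. Against T cells, 0, 16, 18 and 9 G2/M genes and 0, 9, 2 and 1 S genes were higher in macrophages, where 39, 44.5, 41.1 and 39.7% of all genes were. The T cell sums rest on 104 to 158 cells a library. In library 1 the B and T cell sums both include the barcode in both gates that had 14 G2/M genes. Other T cells of that library had at most 1 G2/M gene after thinning. The counts of genes without barcodes in both gates were not computed.

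Mki67, whose protein coats mitotic chromosomes and is the usual stain for dividing cells, had 198, 79.6 and 30.2 CPM in Ccr2, Folr2 and Timd4 macrophages of library 3, and 146, 77.4 and 23.4 CPM in library 4. Pclaf, an S gene whose protein partners the replication clamp, had 97.6, 57.3 and 22.6 CPM in library 3 and 74.3, 81.5 and 14.3 CPM in library 4, where its level was higher in Folr2 than in Ccr2 macrophages. Ccr2 macrophages of library 1 had 13 UMIs of Mki67 and none of Pclaf, Ube2c or Ccnb1.

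Across all macrophages the members spanned a wide range of levels. Levels of different genes are summed 3′ UMI counts, which are not divided by length since 1 UMI stands for 1 transcript end. Among the genes of the replication fork, the helicase subunits Mcm2 to Mcm7 ran from 3.32 CPM (Mcm5, library 1) to 41.6 CPM (Mcm3, library 2). Pcna, the sliding clamp that holds the polymerase on DNA, was the highest S gene, with 75.9, 114, 68.3 and 53.6 CPM in libraries 1 to 4. Mcm5 had 3.32, 32.6, 11.9 and 8.37 CPM, so library 2 stood well above the other libraries and library 1 below them. All 11 S genes and the other 4 members were highest in library 2. The shares of all genes highest or lowest in a library were not computed, so such counts describe the members alone.

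The genes of nucleotide supply split in level by library 1. Rrm1, the large subunit of ribonucleotide reductase, had 17.1, 32.1, 17.3 and 15.2 CPM, while its small subunit Rrm2 had 1.06, 14.2, 9.36 and 6.42 CPM. Tyms, which makes thymidylate, had 2.87, 20.2, 15.3 and 13.6 CPM, and Pclaf 1.96, 43.6, 25.6 and 19.4 CPM. Pclaf, Rrm2, Tyms and Mcm5 were the 4 S genes lowest in library 1, and the other 7 were lowest in library 4.

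G2/M genes were lowest in library 1 in 18 of 19 cases, again without a share of all genes to set beside the count. Mki67 had 9.65, 36.3, 37.2 and 29.6 CPM. Top2a, the topoisomerase that untangles sister DNA, had 6.33, 49.0, 39.8 and 29.5 CPM. Among the regulators, Cdk1, the mitotic kinase, had 1.21, 15.7, 13.7 and 11.8 CPM, and its cyclin partners Ccna2, Ccnb1 and Ccnb2 ran from 1.21 to 13.2 CPM. The mitotic kinases Plk1, Aurka and Aurkb ran from 0.829 to 13.5 CPM, and Bub1, a kinase of the spindle checkpoint, from 0.377 to 3.76 CPM. Bub1 was the lowest member in libraries 1 and 4 and Aurka, at 2.89 and 2.86 CPM, in libraries 2 and 3. Ube2c and Cdc20, which feed and activate the anaphase-promoting complex, had 5.73 to 38.2 and 1.96 to 6.99 CPM. Birc5, of the chromosomal passenger complex, the spindle proteins Kif11, Tpx2 and Nusap1, and the kinetochore proteins Cenpe and Cenpf ran from 1.36 to 25.4 CPM. Cenpa, the histone that marks centromeres, was the exception, with 24.9, 21.4, 28.0 and 24.2 CPM.

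**Figure D2:**
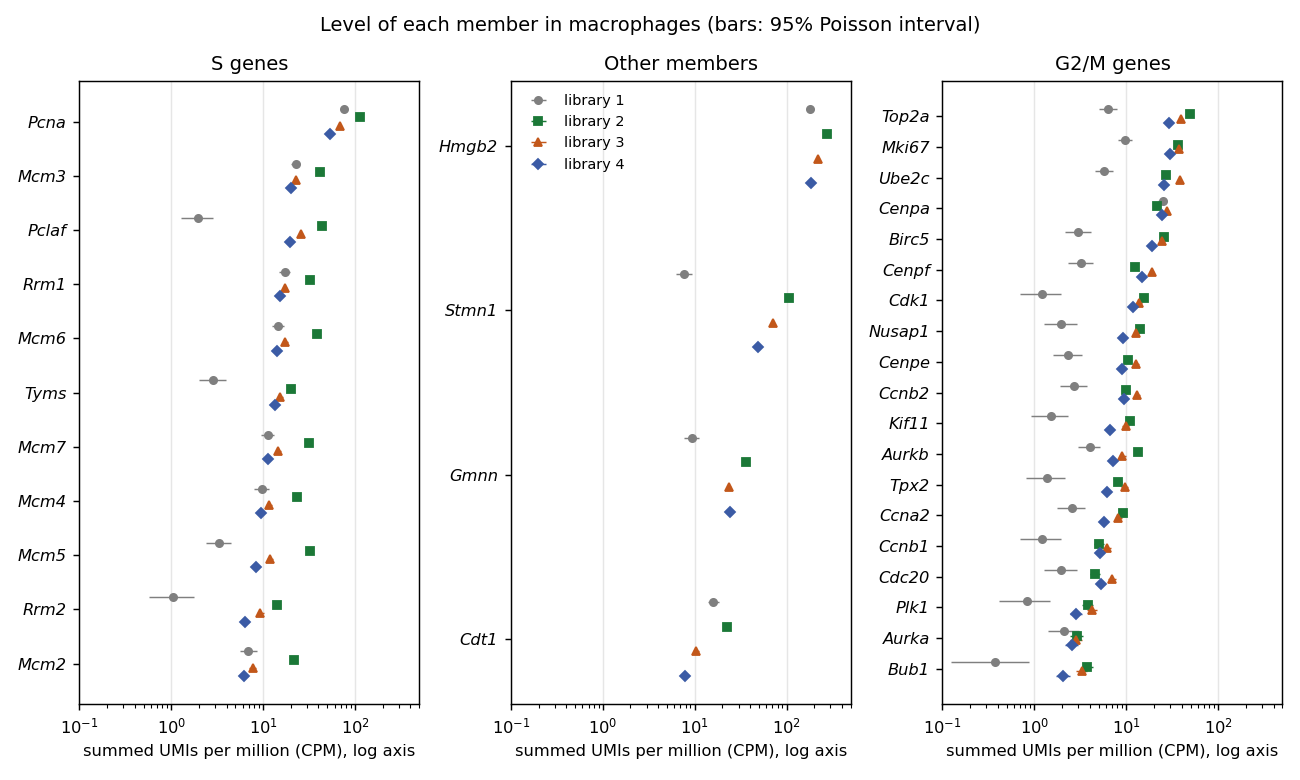
Level of each member in macrophages (horizontal log axis, CPM) by gene (vertical axis), 1 point a library with its 95% Poisson interval. G2/M genes other than Cenpa sit lowest in library 1, as with Mki67 at 9.65 CPM there and 29.6 to 37.2 CPM in libraries 2, 3 and 4, and every S gene sits highest in library 2.

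The other 4 members differed widely in detection. Hmgb2, a DNA-bending chromatin protein, had a UMI in 37.5, 41.3, 34.9 and 31.4% of thinned macrophages and a level of 178, 276, 218 and 182 CPM. Stmn1, which destabilises microtubules, had a UMI in 0.757, 7.04, 5.03 and 3.21%. Cdt1, which loads the helicase, and Gmnn, its inhibitor, had a UMI in 1.78 to 4.996 and 2.89 to 7.47% of macrophages. In T cells Hmgb2 was detected in 66.0 to 72.4% of thinned cells, and in B cells in 28.4 to 34.9%. Opposite-strand genes overlap Mcm7 (Ap4m1 and Cops6), Pclaf (Trip4), Ccna2 (Exosc9), Ube2c (Tnnc2), Cdc20 (Elovl1) and Nusap1 (Oip5) in GENCODE M21. Opposite-strand gene models with only an identifier also overlap Mki67, Top2a, Plk1, Kif11 and Cenpf. No source used here says whether strand was used in counting, so whether reads of such pairs were told apart is not known here.

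Most G2/M transcripts came from a few cells. To describe this without using a gene to choose the cells it is measured in, cycling macrophages were called for each gene from the other G2/M genes. Cycling cells so called were 2.17 to 3.65% of macrophages and held a median of 84.1, 84.8 and 88.5% of the UMIs of a G2/M gene in libraries 2, 3 and 4. Cenpf, a late kinetochore protein, had 95.9, 95.7 and 96.9% of its macrophage UMIs in these cells, and Kif11, the motor that separates spindle poles, 95.6, 97.4 and 90.8%. No UMI of Bub1 was seen in macrophages with no other G2/M gene in libraries 2 and 4, and none of Plk1 in library 2. With 3 UMIs set in place of each 0, the level in cycling cells was 207-fold and 181-fold higher for Bub1. For Plk1 it was 189-fold higher. These ratios leave out the counting error of the cycling cells. Cenpa again differed, with 33.8, 43.2 and 36.2% of its UMIs in cycling cells.

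S genes were spread more widely, and 3 of the members outside the G2/M group were exceptions. The median S gene had 26.3, 27.6 and 28.8% of its UMIs in cycling macrophages. Pcna had 16.2, 16.9 and 11.2%, and Mcm6 14.0, 16.8 and 9.94%. Pclaf reached 86.4, 83.1 and 92.8% and Rrm2 85.2, 75.7 and 81.5%, far above the median S gene. Stmn1, of the other 4 members, had 73.0, 81.2 and 80.8%. The range of the G2/M genes starts as low as 33.8%, in library 2, so that range alone does not set these 3 apart. A UMI of Pclaf was found in 71.1, 56.6 and 58.4% of cycling macrophages, against 0.362, 0.213 and 0.114% of those with no G2/M gene. For Pcna these shares were 59.9, 49.0 and 39.8% in cycling macrophages and 20.1, 14.5 and 12.4% in those with no G2/M gene.

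**Figure D3:**
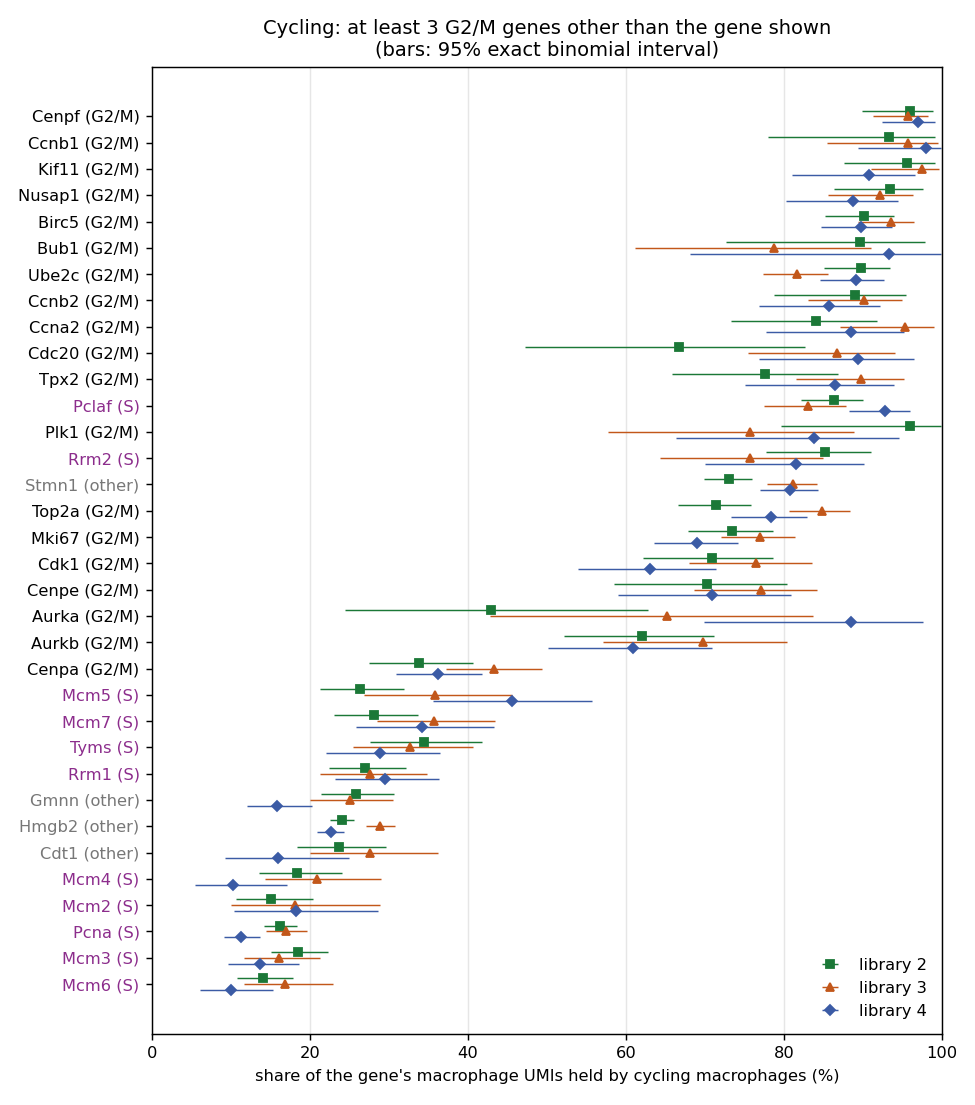
Share of each gene's macrophage UMIs that lay in cycling macrophages (horizontal axis, %) for the 34 members (vertical axis, with their role), called for each G2/M gene without that gene, in libraries 2, 3 and 4 with 95% exact binomial intervals. Pclaf, Rrm2 and Stmn1 sit among the G2/M genes at 73.0 to 92.8%, while Pcna and the helicase genes lie at 9.94 to 45.5% and Cenpa at 33.8 to 43.2%.

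The number of S genes in a macrophage changed along the number of its G2/M genes. In library 2 macrophages with no G2/M gene had a mean of 0.576 S genes of 11, those with 1 had 0.959, those with 2 had 3.25, those with 3 to 4 had 5.61, those with 5 to 9 had 4.16 and those with 10 or more had 3.57. Library 3 gave 0.336, 0.507, 2.30, 3.42, 3.60 and 2.20 over the same steps, and library 4 gave 0.296, 0.391, 1.51, 3.53, 3.70 and 2.29. S genes were thus most numerous at an intermediate number of G2/M genes in each of these libraries and fewer in cells with 10 or more. The steps from 3 genes upward rest on 15 to 91 cells each, and that of 3 to 4 genes in library 4 on 15. Left out, that step leaves library 4 highest at 5 to 9 genes, as with it.

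**Figure D4:**
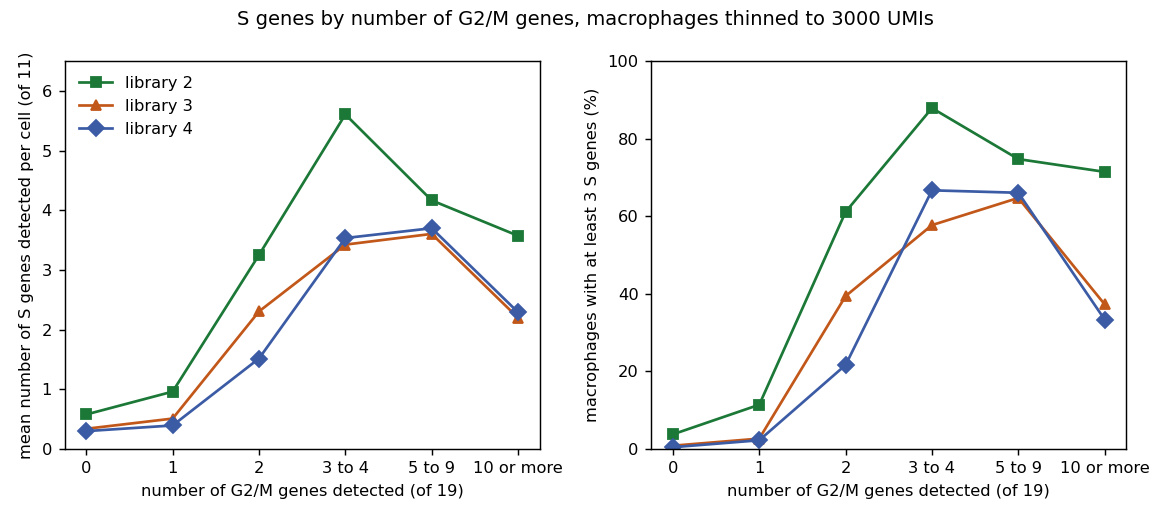
Mean number of S genes detected per macrophage (left) and share of macrophages with at least 3 S genes (right, %) by the number of G2/M genes detected (horizontal axis), 1 line a library, at 3000 UMIs a cell. Both measures are highest between 3 and 9 G2/M genes and lower at 10 or more, where the mean is 3.57, 2.20 and 2.29 S genes in libraries 2, 3 and 4.

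Within cycling macrophages, Ccnb1, Cdc20 and Ube2c were higher where S genes were few. Cycling cells with under 3 S genes (35, 67 and 53 in libraries 2, 3 and 4) were set against those with at least 3 (117, 78 and 60), at the same 3000 UMIs each, and the S genes that made the split are not compared. Of the 19 G2/M genes 12 were higher in the first set in all 3 libraries, where 17.6% of all genes tested were, and 3 were lower in all 3 (Top2a, Aurkb and Bub1), where 18% of all genes were. The interval of the ratio lay above 0 in all 3 libraries for Ccnb1, Cdc20 and Ube2c, against 0.277% of all genes tested. The 19 G2/M genes took part in calling these cells as cycling, and the genes in these shares did not. The shares are therefore not a like comparison.

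Ccnb1, the main mitotic cyclin, had 114, 174 and 245 CPM in cycling cells with under 3 S genes, against 45.6, 42.7 and 55.6 CPM in those with at least 3. Its log2 ratios were 1.34 (0.11 to 2.498), 1.98 (0.98 to 3.21) and 2.09 (1.11 to 3.31). Cdc20, the activator of the anaphase-promoting complex, had 85.7, 199 and 201 CPM in cells with under 3 S genes, against 31.3, 51.3 and 55.6 CPM in those with at least 3, with log2 ratios of 1.47, 1.92 and 1.81, of which that of library 2 has an interval starting just above 0. Ube2c, the ubiquitin-conjugating enzyme of that complex, had log2 ratios of 1.01, 1.23 and 1.58.

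Ccnb2, Cenpa and Cenpf were higher as well, with intervals above 0 in libraries 3 and 4 but not in library 2. Their log2 ratios there were 1.40 and 1.58 (Ccnb2), 1.21 and 1.67 (Cenpa) and 1.38 and 1.505 (Cenpf). Mki67 had log2 ratios of 0.43, 0.33 and 0.47, with an interval above 0 in library 4 alone. In the other direction, Stmn1 had log2 ratios of -0.48, -0.65 and -0.88, each interval below 0, and Top2a -0.13, -0.54 and -0.36, with an interval below 0 in library 3 alone.

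**Figure D5:**
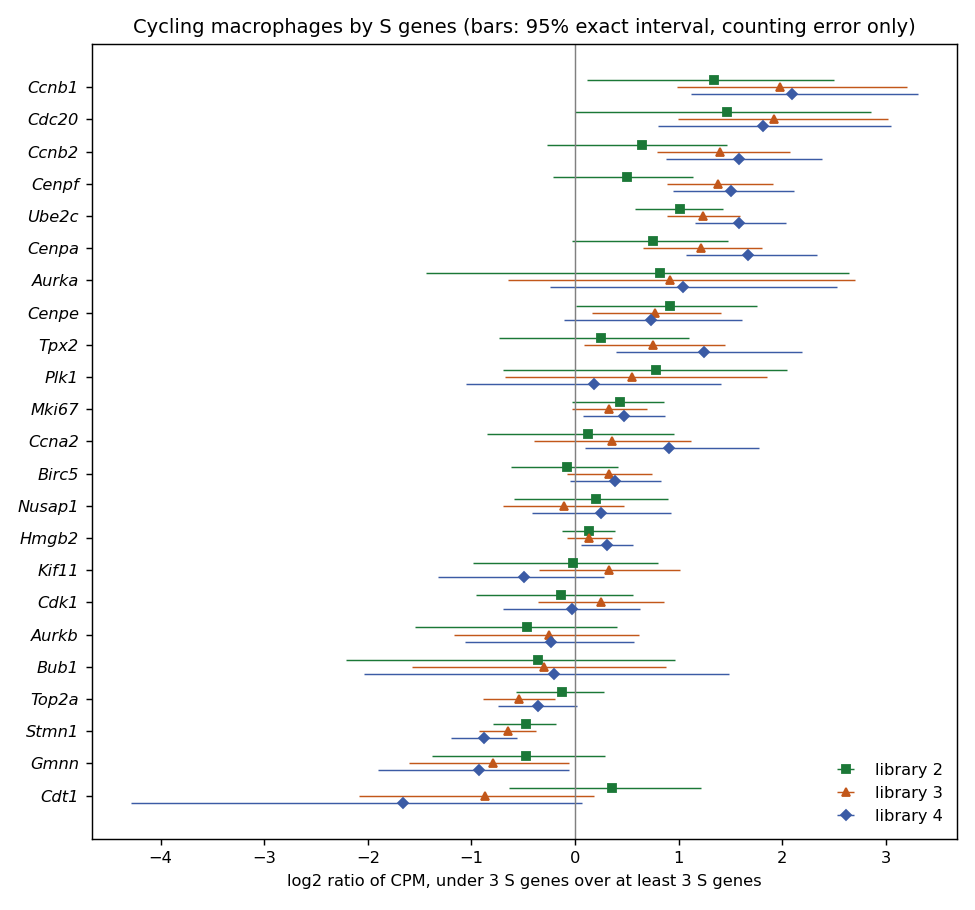
Log2 ratio of CPM in cycling macrophages with under 3 S genes over those with at least 3 (horizontal axis) for the 19 G2/M genes and the other 4 members (vertical axis), 1 point a library with its 95% exact interval. Ccnb1, Cdc20 and Ube2c lie right of 0 in libraries 2, 3 and 4, at 1.01 to 2.09, and Stmn1 left of 0, at -0.48 to -0.88.

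Cycling macrophages were then compared with macrophages that had no G2/M gene, over all other genes. The members chose these cells and were left out of the counts. A gene passed the rule of size when it reached 20 CPM in the higher set and its log2 ratio was 1 or more, or -1 or less, in each of libraries 2, 3 and 4; library 1, with 3 cycling cells, was not used. Of 5274 genes tested 353 were higher in cycling macrophages (6.69%) and 14 were lower (0.265%). The median log2 ratio of all genes tested was 0.09, 0.13 and 0.17 in the 3 libraries. The 2 sets differed in their subsets: Ccr2 macrophages were 29.6, 15.2 and 35.4% of cycling macrophages and 18.7, 2.91 and 4.75% of the others. Timd4 macrophages were 25, 36.6 and 35.4% of cycling macrophages and 12.7, 48.8 and 53.8% of the others. What part of the ratios follows the mix of subsets was not tested.

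Other genes of the cell cycle, in 8 lists that hold no member, made up 107 of the 353 genes higher. Of their 147 genes 119 reached 20 CPM in either set, 107 were higher and 0 were lower. A gene that reaches 20 CPM in cycling cells alone had to differ, so these counts describe the lists and are no test of them. In the list of replication fork and precursor genes 25 of the 26 at 20 CPM were higher, out of 30 listed. Among them Tk1, thymidine kinase, had 175, 145 and 147 CPM in cycling macrophages against 1.11, 0.53 and 0.46 CPM in the others. The median log2 ratio of that list was 2.74, 3.11 and 3.36. Among the origin genes 5 of the 6 at 20 CPM were higher, out of 15 listed. Of the G1 and G1/S regulators 5 of the 10 at 20 CPM were, out of 20 listed. These include E2f8, a repressor of the E2F family, with log2 ratios of 5.96, 6.05 and 4.54.

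The 4 mitotic lists had the highest medians of the lists examined. All 9 genes at 20 CPM of the 12 in mitotic entry were higher, as were all 20 at 20 CPM of the 21 spindle motors and midzone proteins. At the kinetochore and checkpoint 15 of the 16 at 20 CPM were higher, out of 17 listed. In condensin, chromatid separation and exit 12 of 15 were, all 15 at 20 CPM. The median log2 ratio of the spindle list was 5.94, 6.89 and 6.64 with counts of 0 set at 3 UMIs. Foxm1, a transcription factor of G2 genes, had 24, 29 and 13 UMIs in cycling macrophages and 6, 0 and 1 in the others. Prc1, which bundles midzone microtubules, had log2 ratios of 8.20, 9.05 and 8.46. Espl1, separase, and Pttg1, its inhibitor securin, did not pass, with log2 ratios of 0.59, -0.31 and -0.25 and of -0.10, -0.33 and 0.37. Of the chromatin and nuclear protein list 16 of 17 were higher, among them the replacement histone H2az1, with 2375, 2228 and 2667 CPM in cycling macrophages against 576, 566 and 679 CPM in the others.

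The 10 named genes with the largest ratios were Hmmr, Aspm, H3c3, Esco2, Kif14, Kif18b, Prr11, Pimreg, Ska1 and Kif4, with 4 UMIs or fewer each in the other macrophages of any of these libraries. Hmmr, a spindle protein, had 35, 53 and 46 UMIs in cycling macrophages and 0, 2 and 0 in the others. The counting interval of its log2 ratio started at 7.73 in library 2 and at 8.86 in library 4. Its log2 ratio in library 3 was 9.11, with a counting interval of 7.497 to 12.5. Aspm, a spindle pole protein, had 27, 60 and 61 UMIs in cycling macrophages and 0, 2 and 0 in the others. Esco2, which acetylates cohesin during S phase, had 57, 61 and 30 UMIs in cycling macrophages and 1 in the others of each library.

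Few genes were lower in cycling macrophages. Cxcl13, a chemokine that draws B cells into the peritoneal cavity, had 87.7, 653 and 348 CPM in cycling macrophages, against 304, 3458 and 2102 CPM in the others. Its log2 ratios were -1.77, -2.40 and -2.59, with every interval below -1. Kdm5b, a histone demethylase, had 0, 2 and 1 UMIs in cycling macrophages and 244, 315 and 325 in the others. The counting interval of its log2 ratio in library 2 ended at -1.48. Tgfb2, a growth factor, and the interferon-induced GTPases Iigp1 and Gbp2b were also lower, with log2 ratios between -1.11 and -2.61, as were Slfn5, Cd63, Tcp11l2 and Cd24a. The count of lower genes was unstable, at 9 in a second random draw and 6 without thinning.

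Of 7 CDK inhibitors 4 reached 20 CPM and 2 were higher. Cdkn2c and Cdkn2d, inhibitors of the G1 kinases, were higher in cycling macrophages, with log2 ratios of 3.19, 2.52 and 1.54 and of 1.45, 1.55 and 1.65. Cdkn1a, the p21 inhibitor, did not pass, at 0.54, 0.46 and 0.61, and the other inhibitor tested, Cdkn1b, gave -1.005, 0.45 and 0.54. None of the 11 genes in the list of macrophage growth signals and brakes passed, and 10 reached 20 CPM. Csf1r, the receptor for the growth factor CSF1, had log2 ratios of -0.66, -0.23 and -0.38. Klf2, a transcription factor of resting macrophages, had -0.90, -0.72 and -0.70. Ccnd1, cyclin D1, gave 0.23, -1.57 and -0.78.

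Markers of macrophages were present throughout the cycling cells and lymphocyte markers near 0. The 6 macrophage markers summed to 33436, 38724 and 38699 CPM in cycling macrophages and 43158, 52354 and 61742 CPM in the others, and none passed the rule. Adgre1, the gene of the gate, had log2 ratios of -0.65, -0.96 and -1.15. The 6 B cell markers summed to 2.19, 2.30 and 8.85 CPM in cycling macrophages, 10.96, 3.73 and 3.57 CPM in the others and 7288 to 7832 CPM in B cells of the same libraries, and 1 of the 6 was detected in cycling cells of each library. The 6 T cell markers summed to 0, 2.30 and 2.95 CPM in cycling macrophages. Cd79a and Cd3e are 0 by the gate. None of the 9 markers of small peritoneal or monocyte-derived macrophages at 20 CPM passed the rule, with median log2 ratios of -0.21, 0.07 and 0.76. None of the 10 markers of large peritoneal macrophages did, with medians of -0.38, -0.51 and -0.83. As a single gene, Ccr2 was higher in cycling macrophages of libraries 3 and 4, with log2 ratios of 2.38 and 2.78, and of 0.58 in library 2.

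Correlations of Mki67 among single macrophages were ranked apart for the other members and for genes outside the list. The Pearson correlation of log2(CPM + 1) over thinned cells, taken as the median over the 4 libraries, was 0.55 with Birc5, 0.54 with Stmn1, 0.52 with Ube2c and 0.51 with Top2a. Genes outside the list had to reach 20 CPM over the thinned macrophages of every library, which left 4500. Members had no such floor, so the 2 rankings are not a like comparison. Of the 4500 genes Smc4, a condensin subunit, came closest to Mki67 at 0.20, followed by Tmpo at 0.18 and Tubb5 at 0.17. Under the same floor the highest median was 0.06 for Pcna, with Tubb5, and 0.11 for Mcm5, with Tuba1b. These are too weak in counts this sparse to read. All pairs share the cells and their library, and the values are a description.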

How the data were processed

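The data are single-cell RNA libraries from 4 samples, 1 per group. The authors deposited 1 matrix of UMI counts, raw and not normalized, with 31253 genes and 26811 barcodes. Per the file headers, Cell Ranger 5.0.1 wrote it. CASAVA 1.8, Cell Ranger, Seurat and mm10 are named in the submitters' processing notes, with no role given. The barcode suffix was taken as the library, and no suffix is tied to a sample, so the groups were not compared.

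Barcodes with fewer than 500 detected genes or over 10% mitochondrial UMIs were dropped. The rest were thinned to 3000 UMIs with a fixed seed, and shallower cells were left out of shares. Levels are summed counts per 1e+06 UMIs (CPM). Levels by class used unthinned counts, while cycling cells, their comparisons and correlations used thinned counts. Log2 ratios used a prior count of 0.5 added to each sum. Shares have exact Clopper-Pearson intervals, levels exact Poisson intervals and ratios exact conditional binomial intervals, all at 95%, and a count of 0 was bounded at 3 UMIs or cells. These cover counting error only. The precision is set by the depth given with each library.

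The genes named were all 34 members, the 10 largest and the 10 smallest median log2 ratios past the rule of size (gene models without a symbol left out), genes of fixed lists at 20 CPM, and the 5 genes most correlated with each of Mki67, Pcna and Mcm5. Some genes that this rule selects are not reported here. The members and lists were chosen with earlier results of these data known. Gene positions came from GENCODE M21 and promoters from RefSeq, both for GRCm38. Other thinning depths, filters, gates, rules and left-out libraries were tried, and gating on thinned counts, single-limit subsets, the range of depth and lymphocytes without shared gates were added after the data were seen. Python 3.11.15, numpy 2.4.6, scipy 1.17.1, pandas 2.3.3, scanpy 1.11.5 (for Scrublet) and matplotlib 3.10.9 were used, and the ratio step was tested on simulated data.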

Additional observations from a re-analysis of the deposited data

Results flagged for a closer look

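G2/M transcripts were also found in barcodes that enter none of the comparisons above. Among kept barcodes in no class, at least 3 G2/M genes were detected in 7 of 1170 in library 1 (0.598%), 22 of 1005 in library 2 (2.19%), 24 of 483 in library 3 (4.97%) and 9 of 453 in library 4 (1.99%). Their intervals were 0.241 to 1.23, 1.38 to 3.30, 3.21 to 7.30 and 0.912 to 3.74%. Among barcodes that passed the macrophage gate but exceeded the mitochondrial limit, the same held for 1 of 278 in library 1 (0.360%). It held for 8 of 111 in library 2 (7.21%, 3.16 to 13.7), 6 of 113 in library 3 (5.31%, 1.97 to 11.2) and 4 of 192 in library 4 (2.08%, 0.570 to 5.25). What these barcodes are was not tested.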

How the results depend on the processing

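Signs were followed only for the named genes of most extreme median log2 ratio past the rule, 10 in each direction. All of these kept their sign under the alternatives run. The order of subsets by cycling share turned in some: in library 2 Folr2 stood above Timd4 macrophages among cells past 1 limit only (6.13 against 5.18%) and Ccr2 above Timd4 macrophages with the gate on thinned counts (5.50 against 5.49%), and in library 3 Ccr2 stood below Folr2 macrophages at 10000 to 20000 UMIs (4.23 against 4.57%). The share of cycling macrophages moved past its interval when 2 G2/M genes sufficed (0.826, 4.52, 4.13 and 3.01% in libraries 1 to 4), without thinning (5.93, 5.03 and 3.91% in libraries 2, 3 and 4) and, in library 4, with at least 4 UMIs of Adgre1 (1.86%). The S share moved more: 0.334, 4.88, 2.15 and 1.42% at 2000 UMIs a cell, 9.62, 25.1, 15.7 and 11.8% without thinning, 5.99, 14.6, 6.84 and 5.03% when 2 S genes sufficed, and 8.77% in library 2 with at least 4 UMIs of Adgre1. Both stayed within their intervals in the second draw, under the stricter gene and mitochondrial limits and without marked doublets. The genes higher in cycling macrophages numbered 296 to 449 under the alternatives other than a minimum of 5 CPM, which gave 572. The 14 genes lower numbered 6 without thinning, 9 in the second draw (5 of them shared), 36 at 5 CPM and 23 with ratios centred on the median gene. They numbered 47 without library 2, 35 without library 3 and 21 without library 4, where fewer libraries had to meet the rule. Of the 10 genes with the smallest ratios past the rule, 6 passed without thinning and 5 in the second draw; of the 10 with the largest, 8 and 9 did. The cause of the other moves was not tested. No paired analysis was possible because each group has 1 sample and no library is tied to a group. Precision is limited by 113 to 152 cycling macrophages a library, and by 3 in library 1.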
